A study of Mus musculus with 5 samples.

Results

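Pde10a encodes phosphodiesterase 10A, and a stretch of 260 kb at its upstream end is described here across 2 lines of mouse embryo fibroblasts, MEFB and MEFF, on tiling arrays of chromosome 17. The stretch takes in every probe from 7.935 to 8.195 Mb of the position numbers in the files, which is 1350 of the 387986 chromosome 17 probes. It was chosen by its measured values, as a run of positions where MEFF signal stood above MEFB signal in polyA RNA, so the difference between the lines is given as a description with no test. In 5 kb windows holding at least 8 probes, the stretch is 50 of 15383 windows, and the rest of the gene is 40.

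The MEFB group is 1 array of polyA RNA from a line of genotype +/Thp. The MEFF groups are 2 arrays of total RNA and 2 arrays of polyA RNA from a line of genotype Thp/+. Both are FVBN fibroblast lines from embryos of 12.5 dpc that immortalised spontaneously, and each group stands for 1 line only. All groups carry Thp, a deletion of chromosome 17 that by the labels reaches from T to Sod2, on opposite parental chromosomes in the 2 lines. As placed below, Pde10a lies between these genes, so by the labels each line would have kept 1 copy of it. The number of copies was not tested. The line and the parent of origin of the kept copy cannot be told apart. Every value is log2 of the cDNA signal (Cy3) over that of sonicated genomic DNA of the same line (Cy5), with the median of the array set to 0. A level of 0 is thus the middle probe of the chromosome, not an absence of RNA. The cDNA was double-stranded, so no strand is known. The labels do not say that arrays of a group came from separate cultures. The arrays hold chromosome 17 alone, so marker genes of fibroblasts were not examined. In such bulk RNA, fewer cells of a type and less RNA per cell cannot be told apart.

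PDE10A hydrolyses the second messengers cAMP and cGMP, which ends their signal in the cell. It is best known from the medium spiny neurons of the striatum, where its level is high. In a pre-mRNA, introns are copied along with exons and are then removed by splicing, so a tiling array can show introns of a gene that is being copied, while RNA enriched for a polyA tail is mostly spliced message.

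No source used here states the build of the array's positions, and the files hold no probe sequences. Its positions were therefore set on the NCBIM37 genome by the places that probes avoid, since array designs leave out repeated sequence. No cDNA signal entered this step. Of 26 overlapping blocks of 20 kb between 7.93 and 8.2 Mb, 19 had 1 clear best shift, between 780501 and 783304 bases. After the shift, 0.444% of the 1350 probes fell on repeats, against 16.81% at the file's own numbers. Over 676 other shifts the median was 17.63% and the lowest 9.33%. A low share follows from the choice of shifts, block by block, to keep probes off repeats, so it describes the placing and does not test it. So placed, the stretch runs over 257 kb of chromosome 17 and begins 114 bases downstream of the annotated start of Pde10a (ENSMUSG00000023868.8), a gene on the plus strand at chr17:8718237-9179513 of NCBIM37. It covers 55.7% of the gene. Exons make up 0.351% of it, and nearly all the rest is the first intron of the longest transcripts. Between neighbouring blocks the shift changed by 891 bases at the annotated start and by 783 bases at the second exon described below, so features there are placed to about 1 kb. The name of the gene thus rests on this placing, not on a match of probe sequence, and a feature's place is an estimate.

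Of the 12 annotated transcripts, 3 start at the upstream end of the stretch, among them Pde10a-010 and Pde10a-008. The next annotated start, called the second start here, is at 8994558, downstream of the stretch. RefSeq's table of promoters, built on GRCm38.p6, holds the promoter of that second start at chr17:8801495-8801794 on the plus strand. It is printed because it is the next annotated start downstream of the stretch. Its 300 bases, 5′ to 3′, match NCBIM37 at 1 place, and capitals mark each CG pair.
Pde10a second start: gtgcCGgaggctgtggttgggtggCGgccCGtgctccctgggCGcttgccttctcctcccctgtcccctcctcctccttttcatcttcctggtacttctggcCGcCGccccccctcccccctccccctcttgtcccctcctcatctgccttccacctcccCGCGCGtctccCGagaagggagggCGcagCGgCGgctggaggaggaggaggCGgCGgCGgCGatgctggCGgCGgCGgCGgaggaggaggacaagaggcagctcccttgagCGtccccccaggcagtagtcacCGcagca
The window holds 23 CG pairs and is 71.3% G and C. At least 23 CG pairs are found in 21.5% of the 32851 mouse promoters in the table, whose median is 7. The motif GGGCGG, searched on both strands, is in it 1 time and in 35.7% of all promoters. The motif TATAAA, searched likewise, is not among its letters and is in 13.6% of all promoters. The upstream start of Pde10a-010 and Pde10a-008 is named only.

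Over the stretch, MEFB polyA RNA gave signal below the middle of the chromosome, and MEFF RNA of both kinds gave signal above it. The mean over its 50 windows was -0.18 on the MEFB polyA array, against 0.221 and 0.198 on the arrays of MEFF total RNA and 0.116 and 0.257 on those of MEFF polyA RNA. Each MEFF array was thus above 0 and the MEFB array below it, with no overlap. With the cDNA channel alone the MEFB level was 0.0348, while MEFF had a mean of 0.431 over its total RNA arrays and 0.338 over its polyA arrays. On the MEFB array the windows ran between -0.629 and 1.07 with a median of -0.237. On the MEFF total RNA arrays they ran between -0.362 and 0.648 with a median of 0.218, and between -0.287 and 0.595 with a median of 0.224. On the MEFF polyA arrays they ran between -0.299 and 0.481 with a median of 0.0938, and between -0.458 and 0.994 with a median of 0.279. Windows above 0 numbered 7 of 50 on the MEFB array, 39 and 37 on the arrays of MEFF total RNA, and 34 and 38 on the MEFF polyA arrays. Of all 15383 windows, 6618 stood above 0 on the MEFB array and between 5794 and 5835 on each MEFF array.

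Set among all windows of the chromosome, the median window of the stretch stood at percentile 33.2 on the MEFB array. It stood at percentiles 82.9 and 83.3 for the arrays of MEFF total RNA and at 75.8 and 80.1 on the MEFF polyA arrays. In the MEFB array 1 of the 50 windows was in the top 10% of the chromosome, where 10% of all windows are. In MEFF total RNA 17 of the 50 were in the top 10% on both arrays, as were 9.2% of all windows. In MEFF polyA RNA 2 of the 50 were, against 8.9% of all windows. That count was 6 by the median of probes and 5 after normexp, a background correction that subtracts an estimate of the background from each channel, so it stood below or near the background share, depending on the processing.

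**Figure D1:**
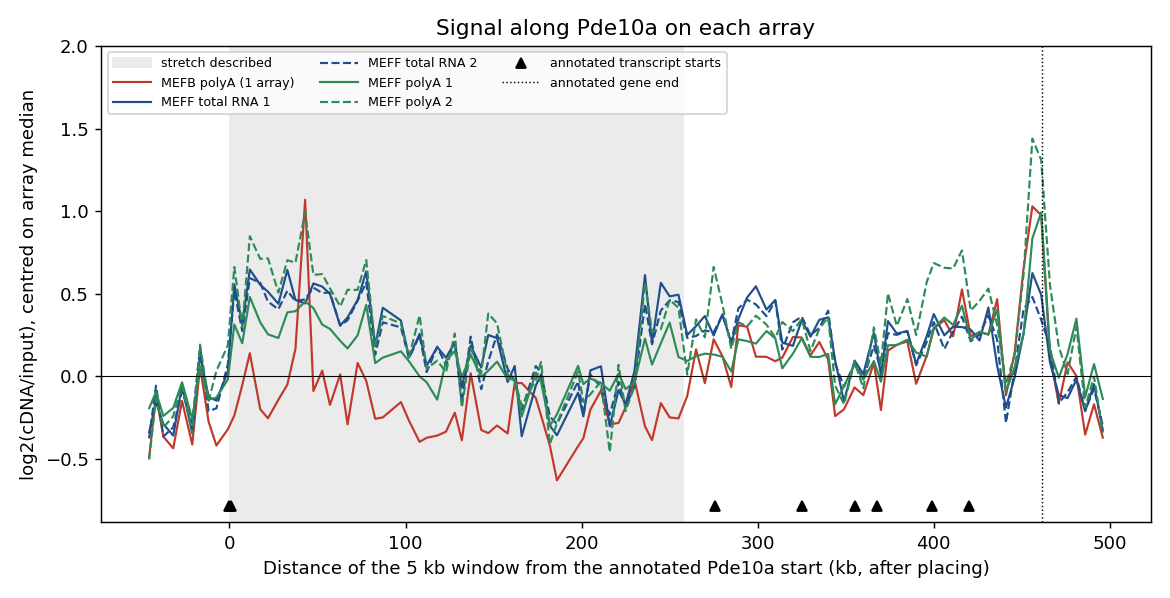
Level of each 5 kb window (vertical axis, log2 of cDNA over input, centred on each array's median) against its distance in kb from the annotated Pde10a start, 1 line per array. In the shaded stretch the 4 MEFF lines begin between 0.315 and 0.663, decline and return, while the MEFB line averages -0.18 with 1 peak of 1.07.

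The MEFF signal had a shape along the gene. Over the 50 kb before the annotated start the mean over probes was -0.293 in MEFB, -0.165 and -0.165 in MEFF total RNA, and -0.124 and -0.144 in MEFF polyA RNA. All arrays lay below 0 there. In the first 50 kb of intron 1 the means were 0.0293 in MEFB, 0.503 and 0.47 in MEFF total RNA, and 0.334 and 0.676 in MEFF polyA RNA. From 50 to 100 kb they were -0.109 in MEFB, 0.418 and 0.384 in MEFF total RNA, and 0.214 and 0.458 in MEFF polyA RNA. Every MEFF array was above MEFB in both sections, although from 0 to 50 kb the lower polyA array stood no farther from MEFB than from its replicate. Without the 26 probes on pseudogenes described below, that section had -0.129 in MEFB and 0.309 and 0.62 in MEFF polyA RNA. The lower polyA array was then closer to its replicate than to MEFB. From 100 to 150 kb the levels came down to 0.129 and 0.0938 in MEFF total RNA and 0.0417 and 0.117 in MEFF polyA RNA, beside -0.297 in MEFB. From 150 to 200 kb the MEFF arrays were near 0, at -0.0357 and -0.00661 in MEFF total RNA and -0.0372 and -0.00297 in MEFF polyA RNA, beside -0.256 in MEFB. From 200 kb to the second exon of Pde10a-008 the values were -0.244 in MEFB, -0.131 and -0.138 in MEFF total RNA, and -0.0526 and -0.162 in MEFF polyA RNA.

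Past that second exon, which is placed at chr17:8949827-8949958 of NCBIM37, the MEFF signal was high again. To the end of the stretch the means were -0.238 in MEFB, 0.472 and 0.388 in MEFF total RNA, and 0.192 and 0.391 in MEFF polyA RNA. A straight line through the 1218 probes of intron 1 sloped by -0.144 per 100 kb in MEFB, by -0.357 and -0.337 in MEFF total RNA, and by -0.215 and -0.448 in MEFF polyA RNA. The slope was downward on all 5 arrays and steeper on each MEFF array than on the MEFB array, which is given as a description since probes share an array. The line includes 26 probes on pseudogenes in the first 50 kb, described below, which averaged 1.56 in MEFB. No slope was fitted without them.

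**Figure D2:**
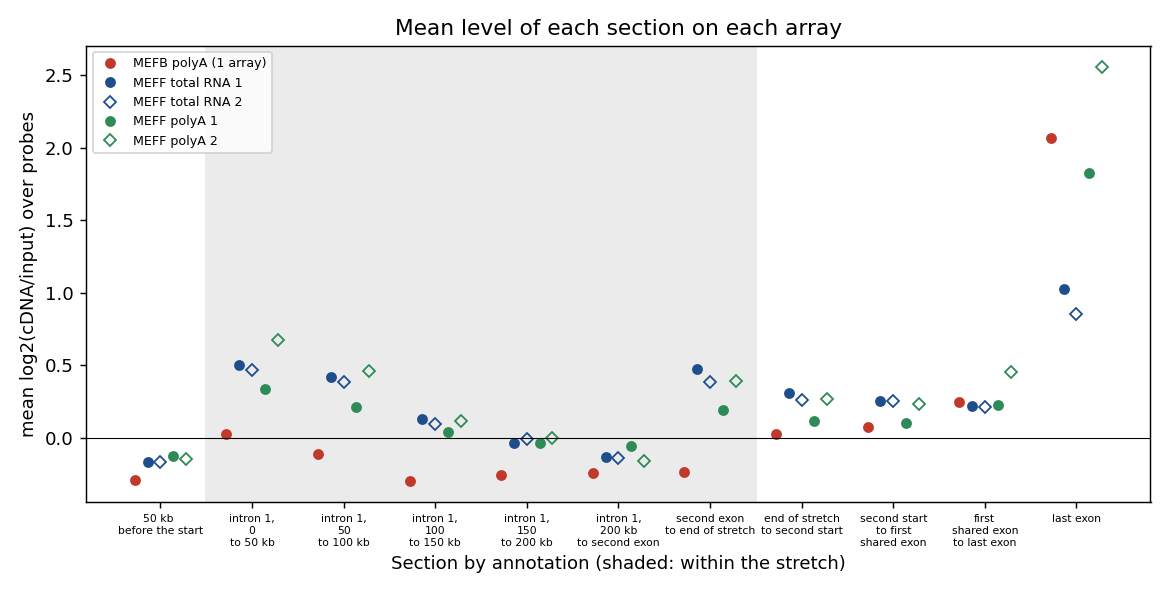
Mean level over the probes of each section of Pde10a (vertical axis, log2 of cDNA over input), in order along the gene, with 1 point per array. In the shaded sections the MEFB points lie between -0.297 and 0.0293, the MEFF points fall toward 0 and come back past the second exon, and at the last exon all points are at or above 0.857.

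Around the start and the second exon, levels changed within a few kb. In the 5 kb before the start the levels were -0.415 in MEFB, -0.0374 and 0.00423 in MEFF total RNA, and -0.0643 and 0.0233 in MEFF polyA RNA. In the 5 kb after the start they were -0.202 in MEFB, 0.481 and 0.449 in MEFF total RNA, and 0.271 and 0.669 in MEFF polyA RNA. All 4 MEFF arrays were thus near 0 before the annotated start and well above 0 after it. In the 5 kb before the second exon the levels were -0.334 in MEFB, -0.322 and -0.34 in MEFF total RNA, and -0.205 and -0.446 in MEFF polyA RNA, so the lines overlapped there. In the 5 kb after the exon's start they were -0.0443 in MEFB, 0.561 and 0.391 in MEFF total RNA, and 0.213 and 0.633 in MEFF polyA RNA. MEFB thus rose at both places too, and stayed below 0. These profiles rest on 18 to 38 probes each.

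**Figure D3:**
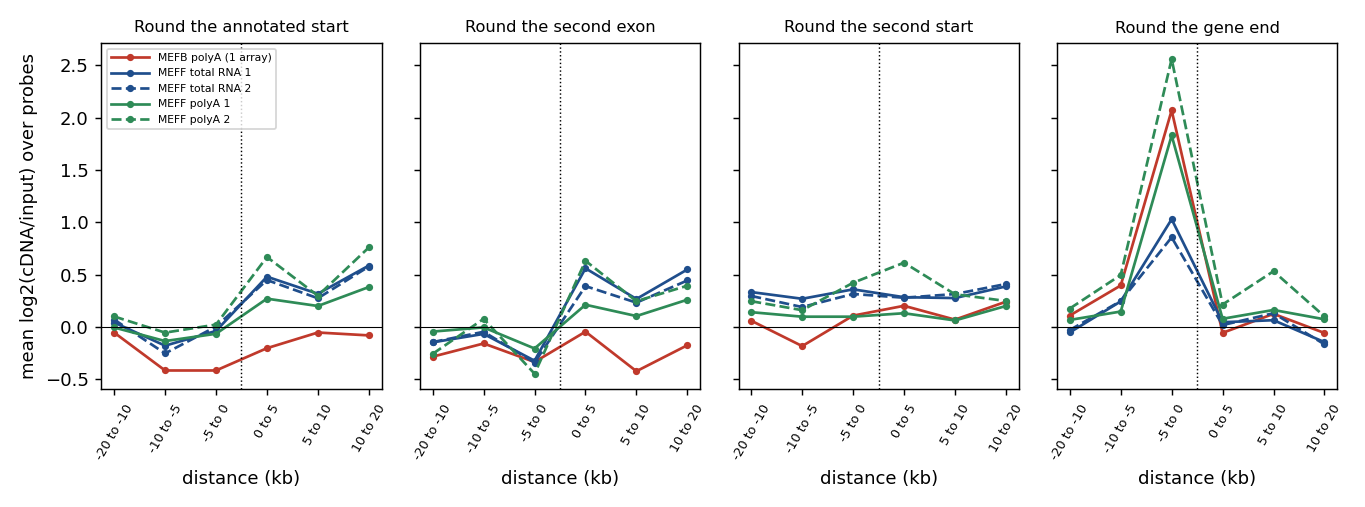
Mean level over probes (vertical axis, log2 of cDNA over input) in bins of distance in kb from the annotated start, the second exon of Pde10a-008, the second start and the gene end, 1 line per array; dotted lines mark the feature. Every array rises at the first 2 features, the MEFF arrays to above 0, while MEFB stays below 0. All arrays peak just before the gene end, MEFB at 2.07.

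At the upstream border, the last 3 windows outside the stretch and the first 3 inside give the step window by window. The window from 7.92 Mb had -0.274 in MEFB, -0.124 and -0.209 in MEFF total RNA, and -0.14 and -0.147 in MEFF polyA RNA. The window from 7.925 Mb had -0.418 in MEFB, -0.146 and -0.193 in MEFF total RNA, and -0.128 and 0.0336 in MEFF polyA RNA. The window from 7.93 Mb, which holds the placed start itself near its end, had -0.32 in MEFB, 0.0289 and 0.0725 in MEFF total RNA, and -0.0184 and 0.189 in MEFF polyA RNA. Inside, the window from 7.935 Mb had -0.236 in MEFB, 0.557 and 0.52 in MEFF total RNA, and 0.315 and 0.663 in MEFF polyA RNA. The window from 7.94 Mb was lower on every MEFF array, at 0.318 and 0.275 in MEFF total RNA and 0.201 and 0.299 in MEFF polyA RNA, beside -0.0523 in MEFB. The window from 7.945 Mb was the highest of the stretch in MEFF total RNA, at 0.648 and 0.595, beside 0.141 in MEFB and 0.481 and 0.849 in MEFF polyA RNA.

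The downstream border was less steep. The windows from 8.18 Mb and 8.19 Mb had 0.567 and 0.399, and 0.495 and 0.451, on the 2 MEFF total RNA arrays, beside -0.161 and -0.254 in MEFB. On the MEFF polyA arrays these windows had 0.201 and 0.286, and 0.118 and 0.416. Just outside, the window from 8.195 Mb had -0.118 in MEFB, 0.251 and 0.233 in MEFF total RNA, and 0.0937 and 0.0115 in MEFF polyA RNA. The window from 8.2 Mb had 0.164 in MEFB, 0.305 and 0.245 in MEFF total RNA, and 0.123 and 0.346 in MEFF polyA RNA, so that MEFB lay among the MEFF polyA arrays. The window from 8.205 Mb had -0.0408 in MEFB, 0.366 and 0.279 in MEFF total RNA, and 0.138 and 0.237 in MEFF polyA RNA. MEFF signal went on past the border.

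Other windows that were highest in MEFF total RNA all lay in the first 80 kb of the intron. The window from 8.01 Mb had -0.0266 in MEFB, 0.636 and 0.569 in MEFF total RNA, and 0.434 and 0.705 in MEFF polyA RNA. The window from 7.965 Mb had -0.0493 in MEFB, 0.645 and 0.519 in MEFF total RNA, and 0.388 and 0.704 in MEFF polyA RNA. The window from 7.98 Mb had -0.0883 in MEFB, 0.563 and 0.538 in MEFF total RNA, and 0.414 and 0.615 in MEFF polyA RNA. In each of the 3 the MEFB array was below 0 and the 2 kinds of MEFF RNA overlapped.

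The difference between the lines, MEFB polyA minus the mean of MEFF polyA, averaged -0.366 over the stretch. It was -0.437 against MEFF polyA array 2 alone and -0.296 against array 1 alone. Its median over the 50 windows was -0.382, against 0.00728 over all windows, and it ran between -0.738 and 0.345. MEFB was below every MEFF array in 45 of 50 windows, where 27.4% of all windows are, and below both MEFF polyA arrays in 45, where 31.3% of all windows are. This contrast chose the stretch, so nothing is read from these counts. In the rest of Pde10a, 17 of 40 windows had MEFB below every MEFF array, and the median difference was -0.12.

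**Figure D4:**
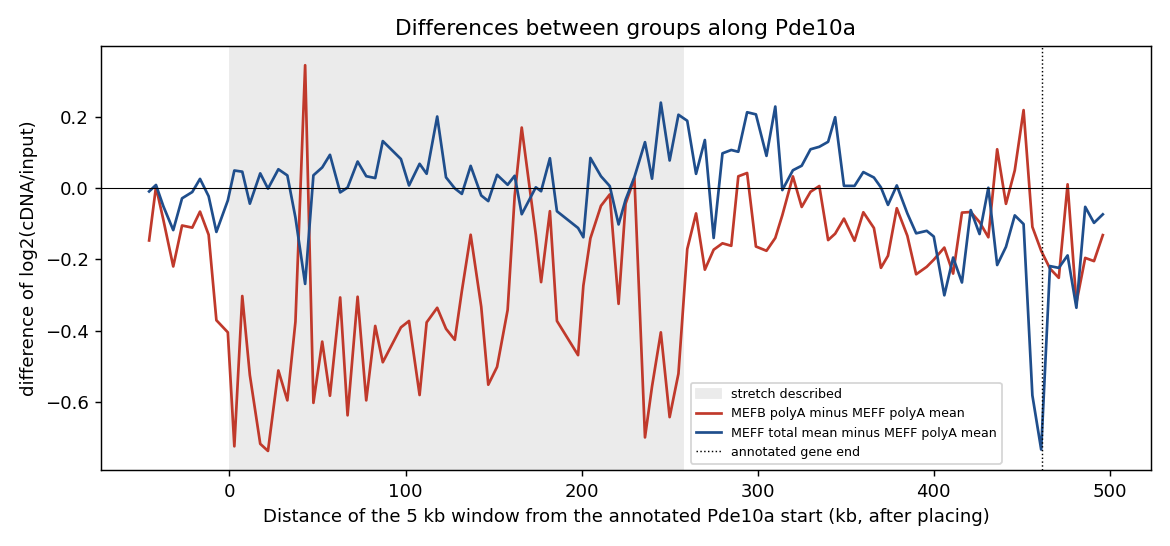
Difference per 5 kb window (vertical axis, log2 scale) of MEFB polyA minus the MEFF polyA mean, and of the MEFF total RNA mean minus the MEFF polyA mean, against distance in kb from the annotated Pde10a start. Inside the shaded stretch the first runs between -0.738 and 0.345, with a median of -0.382, and the second runs between -0.269 and 0.24, with a median of 0.0321.

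The deepest differences were at the 2 ends where MEFF was bright. The window from 7.955 Mb had -0.253 in MEFB, 0.513 and 0.453 in MEFF total RNA, and 0.255 and 0.715 in MEFF polyA RNA, a difference of -0.738 between the lines in polyA RNA. The window from 7.95 Mb had -0.198 in MEFB, 0.555 and 0.568 in MEFF total RNA, and 0.328 and 0.712 in MEFF polyA RNA, a difference of -0.718. The window from 7.935 Mb, given above, differed by -0.725. In all 3, MEFB was below 0 and every MEFF array above it. Past the second exon, the window from 8.17 Mb had -0.302 in MEFB and 0.229 and 0.567 in MEFF polyA RNA, and that from 8.185 Mb had -0.248 in MEFB and 0.326 and 0.464 in MEFF polyA RNA. In both, MEFF total RNA was also above 0, at 0.614 and 0.44 in the window from 8.17 Mb and at 0.485 and 0.461 in the window from 8.185 Mb.

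In some windows the lines were close or MEFB was the higher. The 5 windows in which MEFB was not the lowest array start at 7.975, 8.1, 8.15, 8.16 and 8.165 Mb, and in the last 4 no array was above 0.0307. The window from 8.1 Mb had -0.0397 in MEFB, -0.362 and -0.204 in MEFF total RNA, and -0.242 and -0.178 in MEFF polyA RNA, over 9 probes. The window from 8.15 Mb had -0.29 in MEFB, -0.302 and -0.232 in MEFF total RNA, and -0.0865 and -0.458 in MEFF polyA RNA. The window from 8.165 Mb had -0.0195 in MEFB, 0.0307 and -0.063 in MEFF total RNA, and -0.0349 and -0.0592 in MEFF polyA RNA. Other windows with MEFF levels near or below 0 kept a gap. That from 8.12 Mb had -0.629 in MEFB, -0.356 and -0.287 in MEFF total RNA, and -0.229 and -0.284 in MEFF polyA RNA. The window from 8.095 Mb, in which MEFB was below each MEFF array by little, had -0.0408 in MEFB, 0.0636 and -0.0318 in MEFF total RNA, and -0.0184 and -0.0191 in MEFF polyA RNA.

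The window from 7.975 Mb was the exception, with 1.07 in MEFB, 0.442 and 0.467 in MEFF total RNA, and 0.454 and 0.994 in MEFF polyA RNA. It was the 1 window of the stretch in which MEFB was above every MEFF array while MEFF was above 0. The annotation places 2 overlapping pseudogenes of the minus strand here, Gm15425 at chr17:8757123-8761725 and Gm17087 at chr17:8758717-8759815 of NCBIM37. The 26 probes on Gm15425 averaged 1.56 in MEFB, 0.467 and 0.52 in MEFF total RNA, and 0.575 and 1.22 in MEFF polyA RNA. The 7 probes on Gm17087 averaged 2.71 in MEFB, 0.53 and 0.69 in MEFF total RNA, and 0.597 and 1.48 in MEFF polyA RNA. A pseudogene shares sequence with a parent gene, and whether these probes also read another gene's RNA was not tested. Without the 26 probes, the first 50 kb of intron 1 averaged -0.129 in MEFB, 0.507 and 0.465 in MEFF total RNA, and 0.309 and 0.62 in MEFF polyA RNA. The third pseudogene of the stretch, Gm15426, had 0.296 in MEFB, 0.391 and 0.501 in MEFF total RNA, and 0.283 and 0.621 in MEFF polyA RNA over its 3 probes.

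Exons at or within the stretch held few probes. The exon at the upstream start lies where the shift changes, so the probes put on it are uncertain. The 7 probes so placed on the first exon of Pde10a-010 lie mostly just before the stretch, in the window from 7.93 Mb, since 3 of the 1350 probes of the stretch fall on any exon. They averaged 0.179 in MEFB, 0.429 and 0.369 in MEFF total RNA, and 0.408 and 1.01 in MEFF polyA RNA. MEFB was the lowest array there too. The first exon of Pde10a-009 had 1 probe, with 0.691 in MEFB, 1.58 and 1.36 in MEFF total RNA, and 0.976 and 0.887 in MEFF polyA RNA. The 2 later exons of Pde10a-008 inside the stretch had no probe, so its spliced message was not measured there.

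MEFF total RNA and MEFF polyA RNA were not told apart over the stretch. Their means differed by 0.0232, total minus polyA (exact permutation test over arrays, two-sided, p = 1, n = 2 against 2). The 4 arrays can be divided in 6 ways, so the smallest p this design allows is 2 in 6. By limma with adjustment over all 15383 windows, 0 of the 50 windows passed an adjusted p of 0.05, as did 0% of all windows in either direction. None of the 50 and 1189 of all windows had an unadjusted p below 0.05, and the lowest adjusted p in the stretch was 0.679. The median difference was 0.0321 in the stretch and -0.0107 over all windows. Both total RNA arrays were above both polyA arrays in 6 of 50 windows, where 14.2% of all windows are. The MEFF polyA arrays also entered the choice of the stretch. By the file headers, the 2 kinds of RNA were hybridised on different slide series, so RNA type and slide series cannot be told apart.

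This comparison depended on the background correction. With normexp the difference was 0.261, and both total RNA arrays were above both polyA arrays in 33 of 50 windows, where 14.5% of all windows are. The median difference was then 0.263 in the stretch and -0.103 over all windows. By limma, 0 of 50 windows passed after normexp, with a lowest adjusted p of 0.0698, while 0.689% of all windows passed as higher in total RNA and 2.68% as lower. With quantile normalization 3 of the 50 passed as higher in total RNA, against 2.53% of all windows, and 0 as lower, against 3.51%. These 3 were the windows from 7.935 Mb (limma adjusted p = 0.0428), 8.18 Mb (limma adjusted p = 0.0311) and 8.19 Mb (limma adjusted p = 0.0318), of which the last 2 lie past the second exon. The cDNA channel had a median intensity of 747 in MEFB, 2560 and 2540 in MEFF total RNA, and 1570 and 569 in MEFF polyA RNA. The part of this background in the levels was not tested.

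Across the 50 windows the arrays of a group had similar profiles. Pearson's r was 0.973 between the MEFF total RNA arrays, 0.916 between the MEFF polyA arrays and 0.95 between the means of the 2 kinds. Between MEFB and MEFF total RNA r was 0.411, and between MEFB and MEFF polyA RNA it was 0.548. Without the window from 7.975 Mb these were 0.475 and 0.51. The windows share probes, base composition and each array's input, so the correlations are descriptions.

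The genomic DNA channel did not set the lines apart in the stretch. Its median over the 1350 probes, relative to the array, was -0.011 in MEFB, 0.00418 and 0.0315 in the arrays of MEFF total RNA, and -0.0509 and -0.0196 in those of MEFF polyA RNA, so MEFB lay within the MEFF range. Each array was thus near its own median in the stretch. Whether this channel shows the loss of a copy was not tested. With the cDNA channel alone the difference between MEFB and MEFF polyA was -0.304.

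Beyond the stretch the signal went on in MEFF, and the end of the gene was bright in both lines. In polyA RNA the lines differed there by between -0.167 and -0.0922 per section as deposited, and by between -0.609 and -0.268 after normexp. Inside the stretch the sections differed by between -0.53 and -0.137 as deposited and by between -1.09 and -0.242 after normexp, so the ranges overlap. From the end of the stretch to the second start the means were 0.0258 in MEFB, 0.313 and 0.262 in MEFF total RNA, and 0.115 and 0.271 in MEFF polyA RNA. From the second start to the first exon that the long and short transcripts share they were 0.0756 in MEFB, 0.254 and 0.255 in MEFF total RNA, and 0.106 and 0.237 in MEFF polyA RNA. From there to the last exon MEFB, at 0.248, lay among the MEFF arrays, which had 0.217 and 0.211 in MEFF total RNA and 0.227 and 0.454 in MEFF polyA RNA. After normexp it lay below all of them, at 0.592 beside 0.939 and 0.855 in MEFF total RNA and 0.758 and 1.02 in MEFF polyA RNA. Over the last exon the means were 2.07 in MEFB, 1.03 and 0.857 in MEFF total RNA, and 1.83 and 2.56 in MEFF polyA RNA. As deposited, both lines overlapped here in polyA RNA, and MEFF total RNA was lower than either. After normexp the last exon had 3.0 in MEFB, 2.47 and 2.06 in MEFF total RNA, and 3.47 and 3.73 in MEFF polyA RNA, so MEFB was below both polyA arrays. After normexp, the window from 8.395 Mb, at the gene end, was lower in total RNA than in polyA RNA (limma adjusted p = 0.0251), with a difference of -0.913.

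Downstream of the stretch, exons were brighter than introns in both lines. The 66 probes on exons between the stretch and the last exon averaged 1.07 in MEFB, 0.541 and 0.579 in MEFF total RNA, and 0.789 and 1.51 in MEFF polyA RNA. The 1202 intron probes averaged 0.095 in MEFB, 0.226 and 0.218 in MEFF total RNA, and 0.124 and 0.268 in MEFF polyA RNA. MEFB was thus within the range of the MEFF polyA arrays on exons and below every MEFF array on introns.

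Other 260 kb stretches with the most similar mean on the 5 arrays, by Euclidean distance among 323, were those from 7.415 Mb (distance 0.246), 23.795 Mb (distance 0.269) and 45.895 Mb (distance 0.284). At 7.415 Mb the means were -0.0354 in MEFB, 0.0826 and 0.057 in MEFF total RNA, and 0.121 and 0.233 in MEFF polyA RNA. Among the 323, 1 had a lower mean of MEFB minus MEFF polyA than the Pde10a stretch, at -0.949. This contrast chose the stretch, so nothing is read from that rank.

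Neighbouring genes were placed in the same way and taken whatever their values. Upstream, Brp44l, a mitochondrial pyruvate carrier gene, had 1.04 in MEFB, 0.219 and 0.229 in MEFF total RNA, and 0.264 and 0.603 in MEFF polyA RNA. T, the mesoderm transcription factor brachyury, had -0.284 in MEFB, -0.12 and -0.139 in MEFF total RNA, and 0.00259 and -0.0752 in MEFF polyA RNA. Downstream, Qk, which encodes the RNA-binding protein quaking, had 0.809 in MEFB, 0.61 and 0.559 in MEFF total RNA, and 0.225 and 0.488 in MEFF polyA RNA. Sft2d1, upstream of Pde10a, had 0.193 in MEFB, -0.0708 and -0.0821 in MEFF total RNA, and 0.0341 and 0.118 in MEFF polyA RNA. Prr18, also upstream, had 0.289 in MEFB, 0.0795 and 0.0776 in MEFF total RNA, and 0.131 and 0.497 in MEFF polyA RNA. As placed, Brp44l, Sft2d1 and Prr18 lie before T, so outside the deletion as the labels give it. Of the 7 neighbours with a value, MEFB was above every MEFF array at Brp44l, Sft2d1 and Qk, below every one at T and 6530411M01Rik, and among them at Prr18 and 1700010I14Rik. 1700010I14Rik, downstream of Pde10a, had 0.0137 in MEFB, -0.0378 and -0.0274 in MEFF total RNA, and 0.145 and 0.269 in MEFF polyA RNA. 6530411M01Rik had -0.262 in MEFB, -0.198 and -0.0891 in MEFF total RNA, and -0.0685 and -0.234 in MEFF polyA RNA. Rps6ka2 had too few placed probes for a value. Pde9a, the other cyclic nucleotide phosphodiesterase gene of the list, which acts on cGMP, had -0.254 in MEFB, 0.000706 and -0.0193 in MEFF total RNA, and 0.0477 and 0.206 in MEFF polyA RNA over 515 probes, so that MEFB was below every MEFF array there too.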

How the data were processed

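RNA of 5 samples was measured on 2-colour NimbleGen tiling arrays. The authors deposited unnormalized intensity values, probe by probe and channel by channel, which NimbleScan 2.2.34 wrote, per the file headers. From these, log2(cDNA/input) was computed, centred on each array's median and averaged over 5 kb windows with at least 8 probes. Groups follow the labels. limma 3.58.1 in R 4.3.3 (lmFit and eBayes, all 5 arrays, 3 group means) tested MEFF total against MEFF polyA RNA. Adjustment was by Benjamini-Hochberg over 15383 windows, with a threshold of 0.05. The fit and the placing were also run on simulated data. Of 20 simulated blocks the placing accepted 9, and these 9 were placed right. The simulated probes lay only on non-repeat sequence of NCBIM37 itself, with a constant shift in each block. The simulation thus does not test the placing of an array of unknown build, or of blocks where the shift changes. The p-values speak of the spread between these arrays alone, and that spread may be technical; their number limits the precision. No probe of the stretch reached the scanner limit of 65535.

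Positions were set on NCBIM37 by the places where 14-base repeats are avoided, in blocks of 20 kb, with a z of at least 3.5. The z also had to exceed that of the next best shift by at least 1. For 50-base probes, a length assumed here, this gave annotations from GENCODE. The rest of Pde10a as windows is file positions 8.2 to 8.4 Mb.

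Named windows were the 5 highest in MEFF total RNA, the 5 with the largest and 5 with the smallest MEFB minus MEFF polyA difference, 3 on each side of both borders, and any that passed the test as deposited or after normexp. Windows that passed after quantile normalization were named because they number 5 or fewer; the windows from 8.12 and 8.16 Mb, the pseudogenes and the gene end were named after their values were seen. The stretch and gene lists were chosen with earlier results of these data known. Alternatives were window medians, 2 or 10 kb windows, loess with a span of 0.3, quantile, normexp with offset 50, both together, the cDNA channel alone, dim input probes (lowest 10%) left out, a trended prior, the compared groups alone, top 5% or 20%, and each replicate left out.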

Additional observations from a re-analysis of the deposited data

How the results depend on the processing

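No paired analysis was possible because the replicate numbers were given in accession order only. The MEFB minus MEFF polyA difference was negative in every alternative run: -0.79 after normexp, -0.83 after normexp and quantile, -0.474 without dim input probes, and between -0.437 and -0.296 with a replicate left out (-0.857 to -0.723 with normexp). This contrast on these same arrays chose the stretch, so nothing is read from its sign in the alternatives. The MEFB level was -0.377 without dim input probes and turned to 0.0348 with the cDNA channel alone, which has no input to divide by. The MEFF total RNA level was 0.246 by the median of probes, 0.386 by loess, 0.293 by quantile, 0.884 after normexp, 0.879 after normexp and quantile, 0.431 with the cDNA channel alone and 0.141 without dim probes. It was between 0.198 and 0.221 with a replicate left out (0.833 to 0.934 with normexp). The MEFF polyA level was 0.306 by loess, 0.622 after normexp, 0.615 after normexp and quantile and 0.338 with the cDNA channel alone, and with a replicate left out between 0.116 and 0.257 (0.555 to 0.689 with normexp). Total minus polyA was 0.261 after normexp, 0.264 after normexp and quantile, 0.119 by quantile, 0.0921 with the cDNA channel alone, 0.0798 by loess, 0.0444 without dim probes and 0.0375 by the median of probes. With a replicate left out it was between -0.0472, without polyA replicate 1, and 0.0935 (0.195, 0.211, 0.312 and 0.328 with normexp). Windows passing that test by limma, 0 of 15383 in the main setting, numbered 929 by quantile (3 in the stretch), 518 after normexp, 597 after normexp and quantile (2 in the stretch), 4485 without polyA replicate 1 (5 in the stretch) and 3197 without polyA replicate 2 (14 in the stretch). They numbered between 0 and 4485 as deposited with any replicate left out, and 81, 172, 1283 and 1984 with normexp (0 to 7 in the stretch). With a polyA array left out, the polyA and MEFB groups hold 1 array each. The spread in that fit comes from the pair of total RNA arrays alone, and the lone polyA array is assumed to vary like them. Over the stretch the standard deviation between arrays was 0.0161 for that pair and 0.0995 for the polyA pair. Nothing is read from the counts of windows passing with a replicate left out.

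Windows in the top 10% in MEFF total RNA numbered 32 of 117 at 2 kb, 9 of 26 at 10 kb and 11 of 50 with the cDNA channel alone, with 1 at the top 5% and 28 at the top 20%; 17 to 18 (17 to 19 with normexp) with a replicate left out. In MEFF polyA RNA they numbered 6 by the median of probes, 4 at 2 kb, 1 at 10 kb, 5 after normexp, 5 after normexp and quantile, 0 with the cDNA channel alone, 1 without dim probes, 0 at the top 5% and 20 at the top 20%, and 2 to 4 (5 to 6 with normexp) with a replicate left out. In MEFB they numbered 0 by the median of probes, 2 at 2 kb, 0 without dim probes and 0 at the top 5%. MEFB was below every MEFF array in 100 of 117 windows at 2 kb, 23 of 26 at 10 kb, and 44 to 47 of 50 in the other alternatives. The share over all windows, 27.4%, was computed for the main setting only. This contrast chose the stretch, so nothing is read from these counts either. The causes of changes between settings were not tested. Leaving out the window from 7.975 Mb, chosen after seeing the data, gave a MEFB level of -0.205 and a difference of -0.381. The 99th percentile of cDNA signal was 20.7 times the median in MEFB, 5.42 and 5.33 times the median in MEFF total RNA arrays, and 9.17 and 22.4 times in MEFF polyA arrays. Whether signal over background limits the low values was not tested.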
